A study of Homo sapiens with 6 samples.

Results

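The genes described here encode the factors that elongate and terminate polypeptide chains on the cytosolic ribosome, 10 genes of the 12783 that were tested. EEF1A2 and GSPT2 were selected on the wide difference in their intensities between the radioresistant line TE13R and its parental line TE13 on these same arrays. The other 8 genes, EEF1A1, EEF1B2, EEF1D, EEF1G, EEF2, EEF2K, GSPT1 and ETF1, were added as their paralogs and partners and not for a difference of their own. The array carried 20 named probes for the 10 genes, the probe with the highest mean intensity stood for each gene, and 10 of 10 genes passed the filter on dim probes. EEF1A2 and GSPT2 had 1 probe each, as had EEF2 and EEF2K, so no second probe could be set beside their values. GSPT2 passed that filter only through the TE13R arrays, so its passing shows nothing by itself.

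During elongation, eEF1A brings aminoacyl-tRNA to the ribosome in its GTP-bound form, the eEF1B complex exchanges the spent GDP for GTP, and eEF2 then moves the ribosome along by one codon. Termination is carried out by eRF1, which reads the stop codon, and by the GTPase eRF3, which drives release of the finished chain. Both eEF1A and eRF3 exist in a pair of forms. EEF1A1 is made in nearly all tissues, whereas EEF1A2 is normally the form of adult neurons, heart and skeletal muscle and has been found at raised levels in some tumors. GSPT1 encodes eRF3a, the common form, and GSPT2, an intronless copy on the X chromosome, encodes eRF3b.

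TE13R was derived by continued fractionated irradiation from TE13, an established line of human squamous cancer of the esophagus, and is described as a tumor clone, so the pair represents 1 derived line and its parent. RNA of TE13R and of TE13 was taken 0, 8 and 24 h after irradiation. For RT-PCR at these times the paper calls the first point prior to irradiation. In all, 6 Illumina Human-6 V3 arrays of 1 colour were used, 1 for each line and time point. The methods describe the profiling as done in triplicate, the labels carry no replicate number, and the sources used here give no radiation dose for these samples. The time points therefore serve as the repeat for a difference between lines and the 2 lines as the repeat for a change over time, and the p-values do not measure the spread between cultures. Of the squamous and epithelial markers, 9 of 9 measured genes (among them KRT5, DSG3 and EPCAM) were above the detection limit, an intensity of 20.2 set from the spread of the negative values, on all 6 arrays, while of 5 fibroblast markers COL1A2, COL3A1 and DCN were above it on none, LUM on 1 and COL1A1 on 3, with 17.5, 2.45 and 15.6 in TE13R at 0, 8 and 24 h, against 42.3, 28.8 and 44.4 in TE13. The leukocyte markers PTPRC and CD3E were above it on none. Of the other markers, 1 leukocyte gene of 3 and 2 endothelial genes of 3 were above it on all arrays. Arrays of the 2 lines at the same time point correlated at r = 0.966 to 0.970 over 12783 genes, 8 h and 24 h arrays at 0.935 to 0.957, and 0 h arrays with later ones at only 0.856 to 0.923, so the 0 h arrays stand apart from the rest. Since each time point has its own arrays, time after irradiation and any difference in handling between time points cannot be told apart.

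EEF1A2 was far lower in TE13R than in TE13 at each time point, and over both lines it rose after irradiation. Its TE13R intensities were 35.8, 123 and 468 at 0, 8 and 24 h, against 3225, 6291 and 11983 in TE13. The lines did not overlap, since the highest TE13R array lay below the lowest TE13 array, and every array was above the detection limit. EEF1A2 was thus 90.1-fold lower in TE13R at 0 h, 51.04-fold lower at 8 h and 25.6-fold lower at 24 h. The size of the 0 h ratio is uncertain, since it divides by 35.8, close to the detection limit of 20.2. On the scale of log2(intensity + 16), which is used for all differences below and understates those of dim probes, the difference TE13R minus TE13 was -5.97, -5.50 and -4.63 at the 3 time points, with a mean of -5.37 ± 0.68 (SD, n = 3 time points). These values chose the gene, so no test of them is given. As RNA of whole cultures was measured, fewer expressing cells and less RNA per cell cannot be told apart.

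For EEF1A1, the ubiquitous paralog, no difference between the lines was detected. Its brightest probe had 57958, 43686 and 42878 at 0, 8 and 24 h in TE13R and 59947, 40251 and 47842 in TE13. The ranges of the lines overlapped, and neither line was the higher one at all 3 time points. The difference in log2 units, -0.03, had a standard error of 0.12 (adjusted p = 0.94 from limma) and a 95% interval from 0.807-fold to 1.19-fold. The other 2 EEF1A1 probes had differences of -0.07 and -0.06. The line difference of EEF1A2 minus that of EEF1A1 was -5.92, -5.62 and -4.47 at 0, 8 and 24 h. EEF1A1 probes lay above 99.5% of all probes on every array and reached 62796 on arrays whose highest probe was at 61783 to 67593, so they are near the top of the scale. The probe sequences were not compared between the paralogs, nor with the processed copies of EEF1A1 in the genome.

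**Figure D1:**
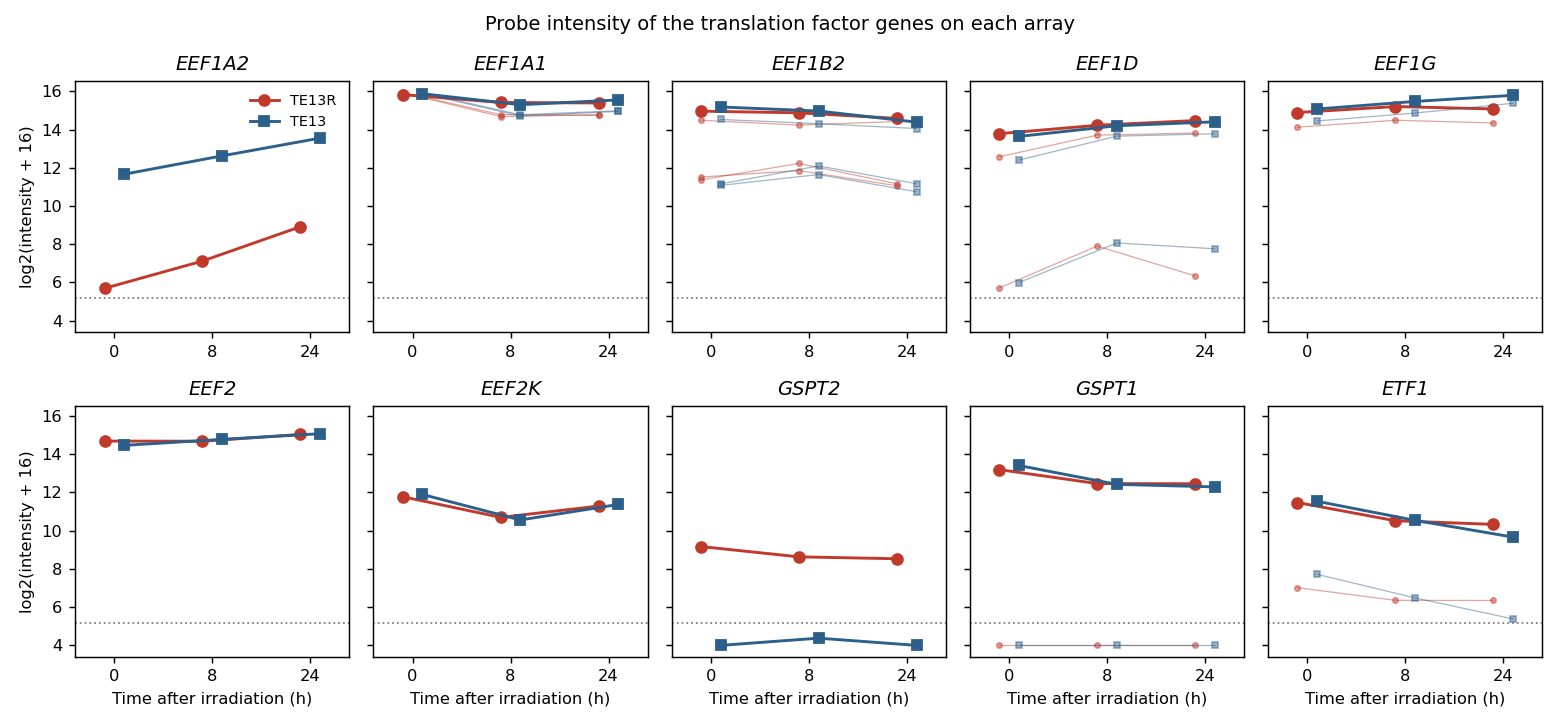
Probe intensity of the 10 genes on each of the 6 arrays, as log2(intensity + 16) against time after irradiation in h, with TE13R as red circles and TE13 as blue squares. Large symbols are the brightest probe of a gene, small pale symbols its other probes, and the dotted line is the detection limit of 20.2. EEF1A2 and GSPT2 are the genes whose lines lie far apart at every time point, and the main probes of the other 8 genes lie within 0.5 of each other except for EEF1G and ETF1 at 24 h.

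The change of EEF1A2 over time did not enter its choice. Relative to 0 h it was 3.44-fold higher at 8 h and 13.1-fold higher at 24 h in TE13R, and 1.95-fold and 3.72-fold higher in TE13. Both TE13R folds divide by the single 0 h value of 35.8, close to the detection limit of 20.2, so their size is uncertain. From 8 h to 24 h, which leaves that array out, the rise was 3.80-fold in TE13R and 1.90-fold in TE13. The level of EEF1A2 thus climbed at each step in each line, with the TE13R values staying below all TE13 values. Over both lines the log2 change was 1.19 at 8 h (standard error 0.31, adjusted p = 0.012 from limma) and 2.56 at 24 h (standard error 0.31, adjusted p = 6.68e-04 from limma), and at 24 h against 8 h it was 1.36 (standard error 0.31, adjusted p = 0.031 from limma). Of all genes tested, 27.5% were called higher (adjusted p under 0.05) at 8 h, 27.8% were called higher at 24 h, both against 0 h, and 7.67% were called higher at 24 h against 8 h. EEF1A1 fell at 8 h, with a log2 change of -0.49 (standard error 0.15, limma adjusted p = 0.023), and had -0.38 at 24 h (standard error 0.15, adjusted p = 0.059 from limma). The size of that fall depends on the probe, since the other 2 EEF1A1 probes changed by -1.15 and -1.21 at 8 h and by -1.07 and -1.04 at 24 h (adjusted p from 2.0e-04 to 5.32e-04 in a limma fit on all probes). The 8 h call of the brightest EEF1A1 probe was lost without the filter on dim probes or without the variance trend (adjusted p = 0.11 in limma for each). For EEF1A2, the calls at 8 h and at 24 h against 8 h were lost without the filter (adjusted p = 0.14 and 0.23 from limma), and the call at 24 h against 8 h also without the variance trend or with an offset of 1 (adjusted p = 0.089 and 0.056 from limma). All 3 were lost with the line left out of the model (adjusted p = 0.74, 0.47 and 0.80 from limma at 8 h, 24 h and 24 h against 8 h). Whether the rise of EEF1A2 differs between the lines could not be tested, because a fit of line by time leaves no residual degrees of freedom.

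No subunit of the exchange factor was called between the lines. EEF1B2, which encodes the catalytic subunit eEF1Bα, had 31850, 29991 and 24495 at 0, 8 and 24 h in TE13R and 37085, 31987 and 21413 in TE13 (log2 difference -0.04, standard error 0.13, adjusted p = 0.92 from limma). EEF1D, the second exchange subunit, had 14062, 19093 and 22665 in TE13R and 12738, 18768 and 21640 in TE13 (log2 difference 0.08, standard error 0.12, adjusted p = 0.80 from limma). For both genes the lines overlapped over most of their range and the arrays of a time point lay close together. EEF1G, the structural subunit that anchors the complex, was the partner with the lowest mean difference. It had 30304, 37677 and 34517 in TE13R and 34434, 45360 and 56594 in TE13, so it was lower in TE13R at all 3 time points, with differences of -0.18, -0.27 and -0.71. The mean of -0.39 did not pass over all genes (standard error 0.14, adjusted p = 0.20 from limma). The second EEF1G probe had -0.58 (standard error 0.16, adjusted p = 0.091 in the limma fit on all probes).

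Over time EEF1D was called higher, EEF1B2 lower at 24 h and EEF1G not at all. EEF1D rose, with log2 changes of 0.50 at 8 h (standard error 0.15, adjusted p = 0.020 from limma) and 0.73 at 24 h (standard error 0.15, adjusted p = 0.0040 from limma). Its 2 dimmer probes rose as well, by 1.19 and 2.13 at 8 h. Without the variance trend the 8 h call of EEF1D was lost (adjusted p = 0.095 from limma). EEF1B2 fell at 24 h with a log2 change of -0.59 (standard error 0.16, limma adjusted p = 0.016) and had -0.15 at 8 h (adjusted p = 0.46 from limma). The call at 24 h was lost without the filter, without the trend and with the mean of the probes, which gave -0.34 (adjusted p = 0.094, 0.078 and 0.10 from limma), and the other 3 probes had -0.27, -0.10 and -0.40, none of them called. The 4 probes disagree at 8 h, where the 2 brighter ones had -0.15 and -0.24 and the 2 dimmer ones 0.90 and 0.45, the 0.90 being called in the limma fit on all probes (adjusted p = 0.0024). The platform assigns the 4 probes to 3 different transcripts of EEF1B2. EEF1G had 0.36 at 8 h and 0.45 at 24 h (adjusted p = 0.12 and 0.056 from limma), and its second probe 0.57 at 24 h (adjusted p = 0.037 in the limma fit on all probes).

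EEF2, the translocase, and EEF2K, the kinase that phosphorylates and inhibits it, did not differ detectably between the lines. EEF2 had 26301, 26179 and 33458 in TE13R at 0, 8 and 24 h and 22505, 28002 and 34391 in TE13 (log2 difference 0.03, standard error 0.13, adjusted p = 0.94 from limma). EEF2K had 3485, 1640 and 2480 in TE13R and 3788, 1492 and 2631 in TE13 (log2 difference -0.02, standard error 0.14, adjusted p = 0.96 from limma). The 95% intervals run from 0.834-fold to 1.25-fold for EEF2 and from 0.784-fold to 1.24-fold for EEF2K. EEF2K was lowest at 8 h in both lines and lay between at 24 h. Its log2 change was -1.21 at 8 h (standard error 0.17, adjusted p = 8.47e-04 from limma) and -0.51 at 24 h (standard error 0.17, adjusted p = 0.038 from limma), and it rose again by 0.70 from 8 h to 24 h (standard error 0.17, adjusted p = 0.039 from limma). EEF2 rose at 24 h, with a log2 change of 0.48 (standard error 0.15, limma adjusted p = 0.030). The EEF2 call was lost without the filter or the trend (adjusted p = 0.11 and 0.12 from limma). Those of EEF2K at 24 h and at 24 h against 8 h were lost without the filter, the trend or the line in the model (adjusted p from 0.053 to 0.16 from limma), and that at 8 h was kept.

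GSPT2 behaved in the opposite way to EEF1A2 between the lines, being measurable in TE13R only. Its TE13R intensities were 559, 380 and 354 at 0, 8 and 24 h, against -9.09, 4.78 and -3.41 in TE13. None of the TE13 arrays exceeded the detection limit, so GSPT2 has no measured level there and its difference is a lower bound. GSPT2 was at least 27.7-fold higher in TE13R at 0 h, at least 18.8-fold at 8 h and at least 17.5-fold at 24 h, or at least 20.9-fold as the geometric mean over the time points. Its log2 difference, whose size depends on the offset of 16, was 5.17, 4.25 and 4.53, with a mean of 4.65 ± 0.47 (SD, n = 3 time points). These values chose the gene and are given without a test.

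For GSPT1, the common form of eRF3, no difference between the lines was detected. It had 9350, 5620 and 5589 at 0, 8 and 24 h in TE13R and 10852, 5463 and 4992 in TE13. The TE13R value was the lower one at 0 h and the higher one at 8 h and 24 h. The log2 difference was 0.00 (standard error 0.14, adjusted p = 0.99 from limma), with a 95% interval from 0.802-fold to 1.24-fold. The line difference of GSPT2 minus that of GSPT1 was 5.38, 4.21 and 4.37 at the 3 time points. A second GSPT1 probe, assigned to an expressed sequence tag, was above the detection limit on no array.

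The bases upstream of the start site are shown for the eRF3 pair, because GSPT2 is the member measured in 1 line only and GSPT1 the counterpart with like intensities in both lines. The sequences are from RefSeq (GRCh38.p14), the 250 bases before the annotated start, read 5′ to 3′ on the gene's strand, with CG dinucleotides, the sites of cytosine methylation in mammals, in capitals. GSPT2 lies on the plus strand (chrX:51743192-51743441) and GSPT1 on the minus strand (chr16:11916655-11916904).
GSPT2: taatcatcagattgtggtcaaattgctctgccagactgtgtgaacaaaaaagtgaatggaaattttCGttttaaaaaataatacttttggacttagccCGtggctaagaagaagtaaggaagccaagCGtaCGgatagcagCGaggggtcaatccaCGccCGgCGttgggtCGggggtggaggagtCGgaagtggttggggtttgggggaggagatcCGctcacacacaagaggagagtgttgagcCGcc
GSPT1: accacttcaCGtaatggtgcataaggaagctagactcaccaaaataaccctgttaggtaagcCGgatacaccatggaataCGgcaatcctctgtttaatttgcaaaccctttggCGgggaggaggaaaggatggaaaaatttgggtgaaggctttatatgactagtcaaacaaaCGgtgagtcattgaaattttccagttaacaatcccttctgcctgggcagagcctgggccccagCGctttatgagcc
The GSPT2 stretch holds 12 CG and has 50.0% G and C bases, and the GSPT1 stretch holds 6 CG and has 46.4%. Over 35116 RefSeq promoters of the same length the median was 11 CG and 58.0%. TATAAA, searched on both strands, occurs in the GSPT1 stretch and not in that of GSPT2, and in 10.7% of all promoters. CCAAT and GGGCGG, also searched on both strands, occur in neither and in 32% and 42.6% of all promoters. The promoter set held 8 of the 10 genes and lacked EEF1A2 and EEF1D, so EEF1A2 could not be shown. A match of letters is a description of the window, and no measurement of methylation or of factor binding was made here.

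ETF1, which encodes eRF1, did not differ detectably between the lines over the 3 time points. It had 2822, 1449 and 1268 in TE13R at 0, 8 and 24 h and 2951, 1471 and 794 in TE13. The log2 differences were -0.06, -0.02 and 0.66 at the 3 time points, and TE13R was 1.597-fold higher at 24 h. The dimmer ETF1 probe had -0.70, -0.13 and 0.96, so there TE13R was the lower line at 0 h and the higher one at 24 h. The mean difference was 0.19 (standard error 0.19, adjusted p = 0.68 from limma).

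Of the 8 partners, 0 were called between the lines in limma at an adjusted p under 0.05, against 5.05% of all genes tested (2.61% called higher and 2.45% called lower in TE13R). At an unadjusted p under 0.05 in limma there was 1, EEF1G, where 2310 of all 12783 genes tested were. The methods' t-test called 0 of 8, before and after adjustment, where it called 517 and 1 of all genes. A count of 0 among 8 is close to what the background share of 5.05% gives. Of the 24 values of the partners at single time points, 22 were under 0.5 log2 units, the exceptions being EEF1G and ETF1 at 24 h. Their median size was 0.13, against 0.33 over all genes tested. The main probes of the partners lay at or above the 88.3 percentile of all probes on every array, whereas the genes tested include dim ones. The medians are thus not matched for intensity, and no unusual stability of the partners is read from them.

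**Figure D2:**
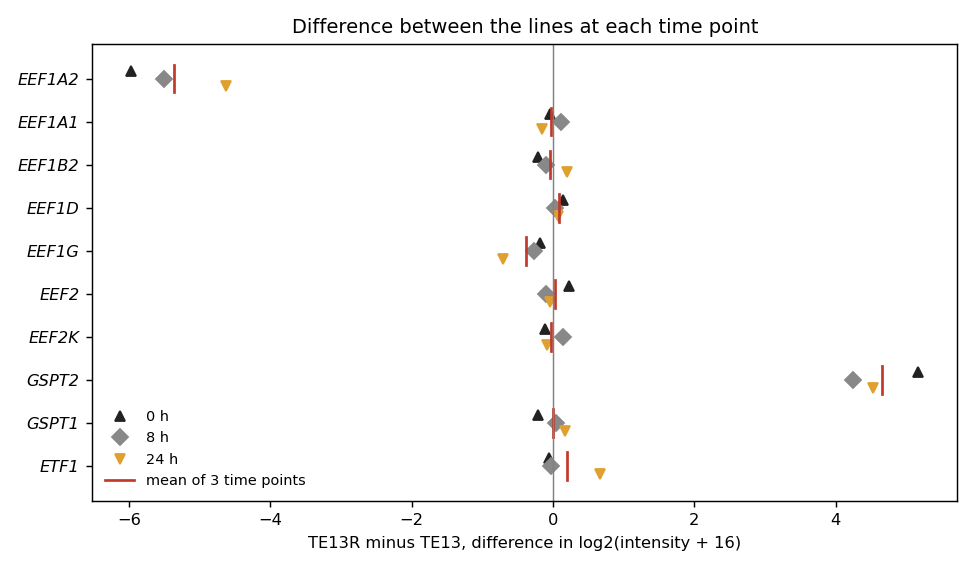
Difference in log2(intensity + 16), TE13R minus TE13, of the brightest probe of each gene at 0 h (triangles pointing up), 8 h (diamonds) and 24 h (triangles pointing down), with the mean as a red bar. EEF1A2 lies between -5.97 and -4.63 and GSPT2 between 4.25 and 5.17, and the 8 partners lie between -0.71 and 0.66.

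GSPT1 and ETF1 both fell after irradiation. GSPT1 had a log2 change of -0.86 at 8 h (standard error 0.17, adjusted p = 0.0031 from limma) and -0.93 at 24 h (standard error 0.17, adjusted p = 0.0025 from limma). ETF1 had -0.98 at 8 h (standard error 0.23, adjusted p = 0.0077 from limma) and -1.51 at 24 h (standard error 0.23, adjusted p = 0.0013 from limma). Both were lower at 8 h and at 24 h than at 0 h in each line, ETF1 being at 0.513 and 0.449 times its 0 h level in TE13R and at 0.499 and 0.269 times in TE13. The dimmer ETF1 probe had -0.95 and -1.50, and the 8 h call of ETF1 was lost without the filter (adjusted p = 0.082 from limma). GSPT2 could be followed in TE13R alone, where it was at 0.679 times its 0 h level at 8 h and at 0.632 times at 24 h, values of single arrays with no test. The fit over both lines takes in the TE13 arrays, where GSPT2 has no measured level. It was not called there at either time (adjusted p = 0.87 and 0.48 from limma), which cannot decide whether GSPT2 changed.

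Of the 10 genes, 6 were called at 8 h and 7 at 24 h against 0 h in limma, where 56.3% and 55.6% of all genes were called, so the number of changes is near the background. GSPT2 counts here as not called, although it has no measured level in TE13. At 8 h EEF1A2 and EEF1D were higher and EEF1A1, EEF2K, GSPT1 and ETF1 were lower, where 28.8% of all genes were called lower. At 24 h EEF1A2, EEF1D and EEF2 were higher and EEF1B2, EEF2K, GSPT1 and ETF1 were lower, where 27.8% of all genes were called lower. Between 24 h and 8 h only EEF1A2 and EEF2K were called, both as higher, where 12.9% of all genes were called, 7.67% higher and 5.23% lower. The contrasts of 8 h and 24 h share the 0 h arrays. The counts against 0 h were 3 and 4 without the filter on dim probes, where 4890 and 4445 of 18665 genes were called. Without the variance trend they were 4 at each time, where 6827 and 6722 of 12783 genes were called.

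**Figure D3:**
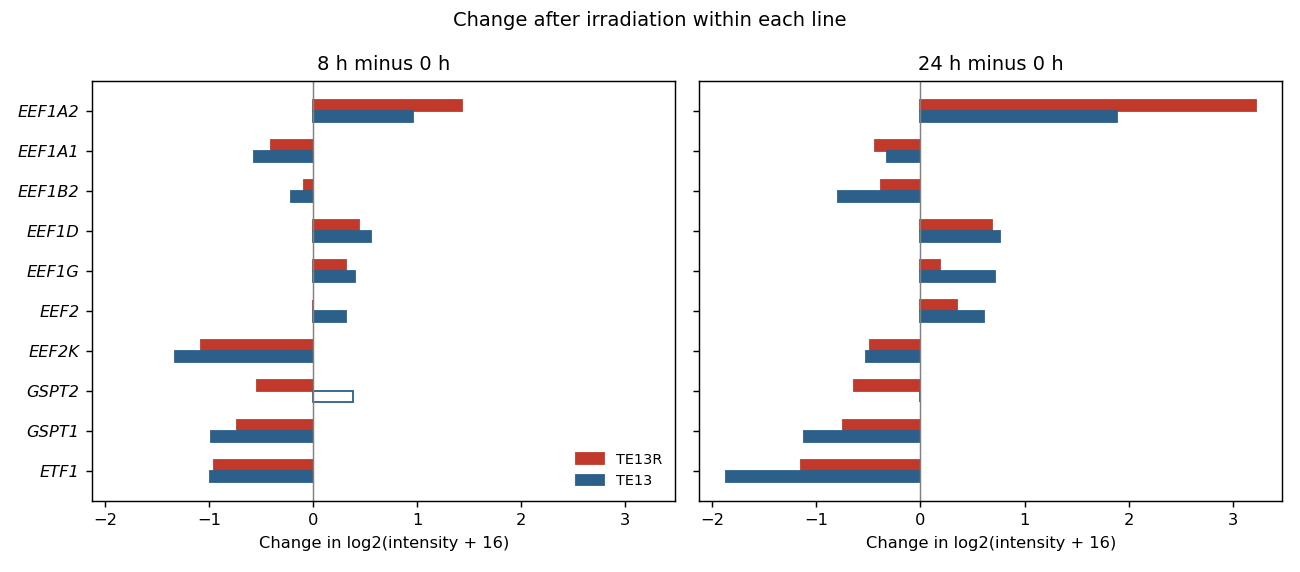
Change in log2(intensity + 16) from 0 h to 8 h (left) and from 0 h to 24 h (right) within TE13R (red, upper bars) and TE13 (blue, lower bars), 1 array per time point and line and hence no error bars. The open bar is GSPT2 in TE13, which was not above the detection limit on any array. EEF1A2 reaches 3.22 in TE13R and 1.89 in TE13 at 24 h, and the bars of EEF1A1, EEF1B2, EEF2K, GSPT1 and ETF1 point down in both lines. The EEF1A2 bars of TE13R start from a 0 h intensity of 35.8, close to the detection limit of 20.2.

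A wider set of 127 genes of the translation apparatus was compared in the same fit, of which 115 were tested. Apart from EEF1A2 and GSPT2, 4 of 113 were called between the lines (3.54%, against 5.05% of all genes). The 4 include RPL3L, which would not have passed the filter without the TE13 arrays, where it was brighter. TRMT112, which encodes the activating subunit of the methyltransferase that modifies eRF1, was the only higher one. It had 11253, 21566 and 17867 in TE13R at 0, 8 and 24 h and 5025, 14284 and 10589 in TE13 (log2 difference 0.84, standard error 0.15, adjusted p = 0.022 from limma), TE13R being the higher line at each time point. EIF2S1, the α subunit of the initiation factor eIF2, was lower in TE13R, with 191, 213 and 86.0 against 472, 413 and 244 in TE13 (log2 difference -1.16, standard error 0.22, adjusted p = 0.027 from limma). EIF2B2, a subunit of the nucleotide exchange factor for eIF2, was lower as well, with 3701, 5464 and 4386 in TE13R against 6395, 7909 and 7400 in TE13 (log2 difference -0.69, standard error 0.13, adjusted p = 0.028 from limma). For both genes the highest TE13R array lay below the lowest TE13 array, narrowly for EIF2S1 (213 against 244). The share of all genes separated in this way was not computed, so nothing is drawn from the separation. These calls and that of RPL3L below were lost without the 8 h arrays, with adjusted p from 0.097 to 0.19 from limma, and that of EIF2B2 also without the 24 h arrays (adjusted p = 0.079 from limma). All 4 were lost without the filter on dim probes (adjusted p from 0.23 to 0.34 from limma) and without the variance trend (adjusted p from 0.064 to 0.14 from limma). They were also lost without the time point in the model and in the methods' t-test after adjustment. Each of the 4 was called in 7 or 8 of 13 alternatives.

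RPL3L, the form of ribosomal protein RPL3 found in heart and skeletal muscle, was the fourth gene called. Among the further pairs with both genes tested, it had the widest gap to its common form. It had 5.68, -1.65 and 62.3 in TE13R at 0, 8 and 24 h, against 29.98, 92.8 and 746 in TE13. It was above the detection limit only at 24 h in TE13R and at all 3 time points in TE13, and was at least 1.49-fold lower in TE13R at 0 h, at least 4.61-fold lower at 8 h and 11.97-fold lower at 24 h (log2 difference -2.38, standard error 0.43, adjusted p = 0.024 from limma). RPL3L would not have passed the filter without its TE13 arrays, so its call is not read as support for a line difference. The size of its log2 difference depends on the offset, being -4.11 with an offset of 1 and -1.47 with 64. The call was lost with an offset of 64 (adjusted p = 0.075 from limma), as it was without the filter (adjusted p = 0.34 from limma). Like EEF1A2 it was highest at 24 h in both lines, with a log2 change of 2.95 at 24 h (standard error 0.52, adjusted p = 0.0024 from limma) and 0.40 at 8 h (adjusted p = 0.55 from limma). For RPL3 the lines differed by -0.02 (standard error 0.13, adjusted p = 0.97 from limma). Of 13 further paralog pairs, 9 had both genes tested, and their line differences were apart by 2.36 for RPL3 and RPL3L, by 0.71 for EIF5A and EIF5A2 and by a median of 0.25. As to other genes of the tissues in which EEF1A2 is normally made, the muscle markers DES, ACTA1, CKM and MYH7 were above the detection limit on no array, and so were the neuronal markers SYP and NEFL. The neuronal genes SNAP25 and STMN2 were above it on all 6, SNAP25 with 47.7, 64.6 and 47.4 in TE13R and 50.7, 107 and 62.8 in TE13, and STMN2 with 58.2, 191 and 107 in TE13R and 44.9, 168 and 130 in TE13. TNNT1, a troponin of slow muscle, was above the limit on all 6, with 212, 723 and 975 in TE13R and 137, 758 and 872 in TE13. The summed level of the 5 muscle markers was 228 to 986 in TE13R and 153 to 884 in TE13, and that of the 4 measured neuronal markers 112 to 263 and 102 to 276. Their part in the result was not tested.

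**Figure D4:**
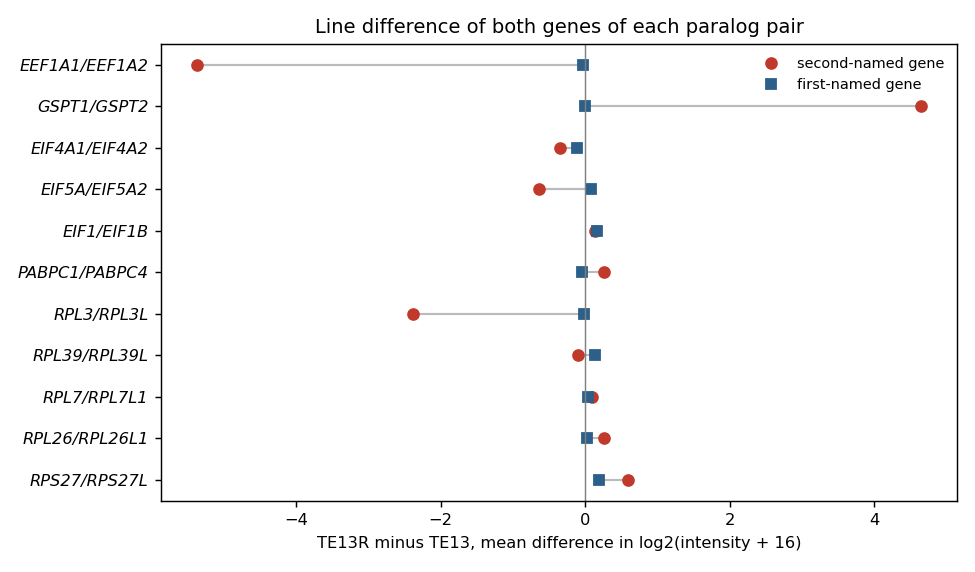
Mean difference in log2(intensity + 16), TE13R minus TE13, over 3 time points for both genes of each paralog pair, the first-named gene as a blue square and the second-named as a red circle. EEF1A2 at -5.37, GSPT2 at 4.65 and RPL3L at -2.38 lie far from their partners, which are at -0.03, 0.00 and -0.02. The positions of GSPT2 and RPL3L depend on the offset, since arrays of 1 line were below the detection limit.

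By list, the genes of elongation had a median log2 change at 24 h above that of all genes, and the other lists one below it. Of 25 genes of cytosolic elongation and its modifying enzymes, 8 were called higher and 3 lower at 24 h against 0 h, with a median of 0.36, where 27.8% of all genes were called higher, 27.8% lower, and the median of all genes was 0.07. Of 22 genes of termination, rescue and nonsense-mediated decay 3 were higher and 12 lower, with a median of -1.09, and of 28 initiation factors 5 were higher and 17 lower, with a median of -0.91. Of 11 mitochondrial translation factors 2 were higher and 7 lower, with a median of -1.16, among them GFM1, a mitochondrial elongation factor, with -1.34 (standard error 0.26, adjusted p = 0.0038 from limma). Of 18 genes of eIF2 kinases, eIF2B and cap-binding control 5 were higher and 7 lower, with a median of -0.24. Between the lines the medians of these 5 lists were from -0.06 to 0.01, and 0 of the 11 mitochondrial genes were called in limma. GFM1 had a line difference of 0.27 (adjusted p = 0.60 from limma), and MTRF1, a mitochondrial release factor, was above the detection limit on 2 arrays, both at 0 h, with 42.6 in TE13R and 60.3 in TE13. The lists share genes, and nothing particular to a list is drawn from these counts.

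None of the nearest tested genes along the chromosomes was called between the lines. EEF1A2 lies on chromosome 20 between COL20A1 and ARFGAP1 on one side and PPDPF and PTK6 on the other. Their line differences were -0.01, -0.13, -0.08 and 0.84, and 0 of the 4 were called in limma (adjusted p from 0.15 to 0.99), where 5.05% of all genes were called. At an unadjusted p under 0.05 in limma there was 1 of 4, PTK6, where 2310 of all 12783 genes tested were. All 4 were called higher at 8 h and at 24 h, with log2 changes from 1.12 to 1.49 at 8 h and from 0.87 to 2.18 at 24 h, where 27.5% and 27.8% of all genes were called higher. PPDPF had 442, 1151 and 1786 in TE13R and 470, 1215 and 1889 in TE13 at 0, 8 and 24 h, so that it climbed at each step in both lines as EEF1A2 did, with like values in the lines. GSPT2 lies on the X chromosome between SHROOM4 and AKAP4 on one side and MAGED1 and MAGED4B on the other, and their line differences were -0.16, 0.27, -0.21 and -0.32, of which 0 were called, and 0 at an unadjusted p under 0.05 (adjusted p from 0.46 to 0.75 from limma). AKAP4 was above the detection limit on 3 arrays and MAGED4B on 5, so these values are partly of probes not above background. MAGED4B has a near-identical neighbouring copy, so its value is uncertain.

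The patterns most like those of the 2 paralogs over the 6 arrays were found by Pearson correlation of log2 intensity with 12340 named genes, as a description over 6 points that share the split into 2 lines. For EEF1A2 they were CFAP300 (r = 0.997), B4GALNT4 (0.982), ELK3 (0.980), NMU (0.979) and CCDC187 (0.978), and 38 genes had an r above 0.95. CFAP300 had 42.2, 70.3 and 117 at 0, 8 and 24 h in TE13R and 368, 535 and 693 in TE13, a line difference of -2.61, so that it was lower in TE13R and climbed in both lines. For GSPT2 they were ZNF22 (0.995), ARSD (0.993), CTNNA3 (0.989), SLC35G2 (0.989) and GPC5 (0.988), and 30 genes had an r above 0.95. ZNF22 had 442, 228 and 249 in TE13R and was above the detection limit on no TE13 array. With their partners the values were r = -0.20 between EEF1A1 and EEF1A2 and r = 0.03 between GSPT1 and GSPT2. EEF1A2 and GSPT2 were chosen on their line difference. A low r with a partner of like intensities in both lines follows from that choice and adds nothing to it.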

How the data were processed

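The arrays were Illumina Human-6 V3. The deposited values are linear intensities of 48803 probes per array that the authors obtained with BeadStudio. Between 14475 and 14486 probes per array are below 0, so background had been subtracted. Array medians of 7.95 to 7.96 and 95th percentiles of 2891 to 2897 show that the arrays had been brought to nearly the same distribution. The sources used here give neither the method of this scaling nor the software version. Detection p-values were not used here, so the DiffScore of the methods was not computed. Depth does not apply to arrays, and their number limits the precision.

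Probes were named through the platform annotation (27578 with 1 symbol, 13 with several, 21212 with none), of which 27541 were found in RefSeq. Differences are in log2(intensity + 16), with negative intensities taken as 0. Probes in the upper 50% on at least 3 of 6 arrays were kept (24765), and the probe with the highest mean intensity stood for each of 12783 genes. The detection limit of an array (20.2) was 3 times the root mean square of its negative values. Bounds set the brighter value against that limit.

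A model of line plus time point was fitted with limma 3.58.1 under R 4.3.3 (lmFit, then eBayes with its trend option), p-values were adjusted after Benjamini and Hochberg over all genes, and there were 2 residual and 5.75 prior degrees of freedom. The fit was tested on simulated data. The members and the gene lists were chosen with earlier results of these data known. Named genes are the 10 members, up to 4 genes of each wider list called between the lines (2 where none was called), the 5 most alike patterns and the 2 nearest tested genes on each side, without Y-linked genes and provisional names. TNNT1 and the other markers come from the marker list, and RPL3, EIF5A, EIF5A2 and EIF4E3 from the list of paralog pairs. The alternatives were offsets of 1 and 64, quantile normalization, median centring, no filter, a stricter filter (upper 35%), the mean of a gene's probes, no trend, no time point or no line in the model, the methods' t-test, each time point left out in turn and, chosen after the data were seen, a fit on all probes and the changes within each line.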

Additional observations from a re-analysis of the deposited data

How the results depend on the processing

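Of 426 values of 42 tested results (the members' contrasts and the calls of TRMT112, EIF2S1, EIF2B2 and RPL3L) under the alternatives, 364 kept their direction and their side of the threshold, 44 kept the direction and lost the call, 6 gained it and 12 changed sign. The 12 are all of values that were not called. As the arrays were already alike in distribution, quantile normalization and median centring are weak checks. With a time point left out, the line differences ran from -0.10 to 0.035 for EEF1A1, from -0.16 to 0.050 for EEF1B2, from -0.068 to 0.093 for EEF2, from -0.10 to 0.025 for EEF2K (0.0077 without the 24 h arrays), from -0.087 to 0.10 for GSPT1 and from -0.043 to 0.32 for ETF1. With the mean of a gene's probes they were 0.12 for EEF1B2 and -0.15 for EEF1D. Over time they were 0.24 for EEF1B2 at 8 h and -0.20 for EEF1D at 24 h against 8 h with the mean of probes, and 0.99 for GSPT2 at 8 h with an offset of 1. The difference of GSPT2 between the lines was 7.88 with an offset of 1 and 2.89 with 64, and its gap to GSPT1 7.88 and 2.90, so only its sign and the bound on the intensity scale can be read.

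The number of genes called between the lines in limma, 646, was 0 without the filter (2270 at an unadjusted p under 0.05), 174 without the trend, 17 without the time point in the model and 1 in the methods' t-test (517 unadjusted). It was 142 to 850 when a time point was left out, the lowest without the 8 h arrays. At 24 h against 0 h it was 4445 without the filter, against 7111. At 24 h against 8 h, with 1648, it was 0 without the filter (3765 unadjusted), 475 without the trend and 0 without the line in the model (2859 unadjusted). Of the members, 3 were called at 8 h without the filter, where 4890 of 18665 genes were. At 24 h 4 members were called without the filter and 4 without the trend, where 4445 of 18665 and 6722 of 12783 genes were. At 24 h against 8 h the number of members called was 1 with an offset of 1. It was 0 without the filter, the trend or the line, each with 2 at an unadjusted p under 0.05 in limma. The cause was not tested. Of the 8 partners, 0 were called between the lines in limma under every alternative run. The rise of EEF1A2 at 24 h was called in 8 of 9 alternatives. Leaving out a line leaves no residual degrees of freedom, so each line's change is given as a value. The comparison of the lines was paired by time point, and the 17 genes above are its count without that pairing.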
